A study of Mus musculus with 33 samples.

Results

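Between postnatal day 10 (P10) and adulthood (P42), cortical and cerebellar microglia of mice did not change in the same way. This difference in change was measured gene by gene as an interaction: the change from P10 to P42 in the cerebellum (Cb) minus the change from P10 to P42 in the cortex (Cx), on the log2 scale. A value above 0 therefore means that a gene rose more, or fell less, in the Cb than in the Cx. The comparison rests on 16 of the 33 RNA-seq libraries of the series, 4 each from the Cb at P10, the Cb at P42, the Cx at P10 and the Cx at P42. The other libraries came from the corpus callosum (CC) at P7, P10 and P42 and from the Cb and Cx at P7, and they entered the same model. Every library was made from microglia sorted as CD45+ CD11b+ Gr1- cells from mice given as C57BL6 in the series description and as C57BL/6 J in the methods of the study, with no treatment named. Cx3cr1 GFP/WT mice were also bred for the study, and no label ties them to these libraries. Each of the 4 groups held 2 female (replicates 1 and 2) and 2 male samples (replicates 3 and 4). By their labels the groups differed in region and age, and in no allele, transgene or agent. Female and male samples of a group cannot come from the same animal, but the labels do not say whether samples of the same sex were separate animals. The p-values measure the spread between these samples, and part of that spread may be technical.

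Microglia are the resident macrophages of the brain. They settle in the embryo, divide and clear debris in the first postnatal weeks, and then leave the cell cycle and take up a surveying, homeostatic state. Adult microglia differ between regions, and those of the cerebellum are known for a more immune-alert and more clearance-oriented profile than those of the cortex. Genes of immune sensing, of lipid uptake and cholesterol export, of chemokine release and of cell division are therefore of interest in a comparison of how the 2 regions mature.

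In the 16 libraries, 28692397 to 58065163 reads per library were counted on genes. Levels are given as CPM, the read counts scaled to the size of each library with TMM factors. The 18 markers of homeostatic microglia together took 94306 to 113687 CPM across the 4 groups, and none was at the detection limit of 3 counts in any group. Since RNA of sorted cells was pooled in each library, fewer cells expressing a gene and less RNA per cell cannot be told apart.

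Of 20917 genes tested, 54 (0.258%) were called in the interaction, which required an adjusted p-value no higher than 0.01 together with a log2 value of at least 1 in size. The value was above 0 for 29 genes (0.139%) and below 0 for 25 (0.12%). Throughout, "edgeR adjusted p" is the p-value of edgeR's quasi-likelihood test after Benjamini-Hochberg adjustment over these 20917 genes. With an adjusted p of up to 0.05 and no limit on size, 180 genes passed. By comparison, 688 genes (3.29%) changed between P10 and P42 in the Cb and 807 (3.86%) in the Cx, with 240 (1.15%) higher and 448 (2.14%) lower at P42 in the Cb, and 228 (1.09%) higher and 579 (2.77%) lower in the Cx. Each of the 16 libraries was also left out in turn, which gave 32 to 50 genes in the interaction. The count fell below 36 without Cb P10 replicate 1 (34 genes), Cb P10 replicate 3 (32), Cx P10 replicate 2 (34), replicate 3 (33) or replicate 4 (34).

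The 54 genes reached their interaction along several routes. Of the 29 genes with a value above 0, 17 fell in the Cx and 9 rose in the Cb, Fxyd5 doing both, and 4 passed in neither region alone (Csf2ra, Gpr84, Tlr2 and Lpar6). Of the 25 with a value below 0, 11 rose in the Cx and 8 fell in the Cb, and 6 passed in neither (Ldhb, S1pr1, Fcrl1, Mgll, Abca1 and Rapsn). These counts use the libraries of the interaction itself and describe its parts. In the plot of both changes, the called genes lie on either side of the line of equal change, and most of those above it sit at the left, where the Cx fell.

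**Figure D1:**
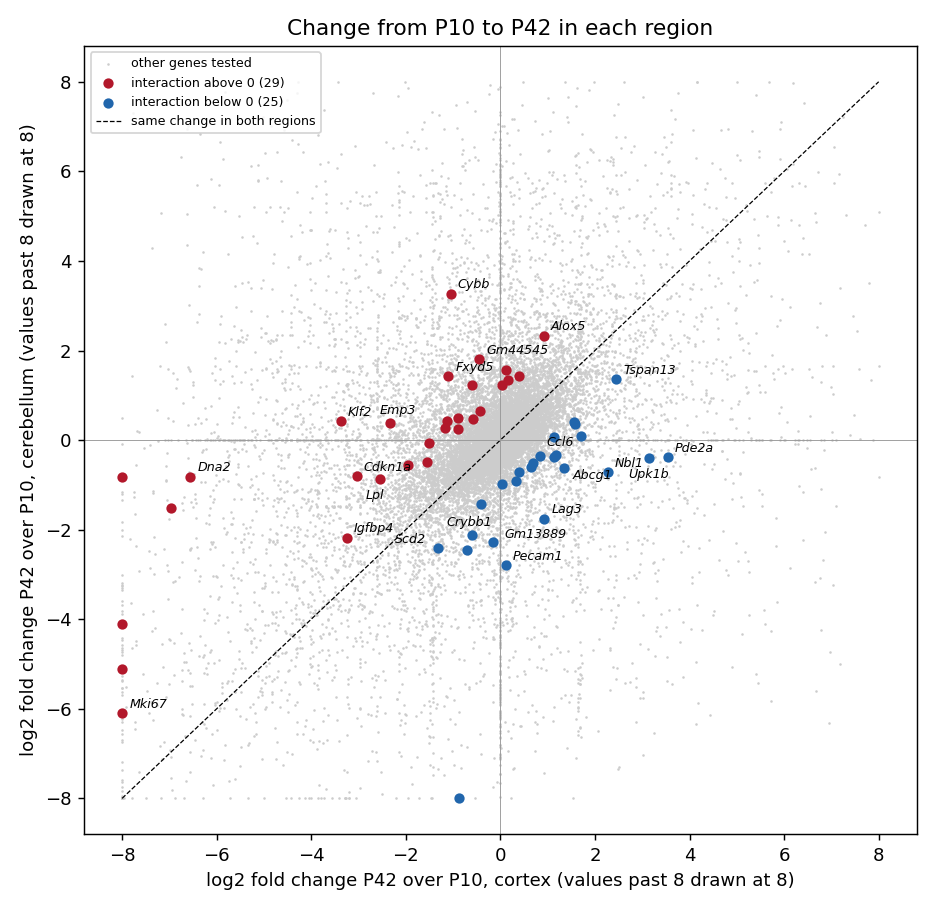
Log2 fold change from P10 to P42 in the Cx (horizontal axis) and in the Cb (vertical axis) for the 20917 genes tested, with the 29 genes of an interaction above 0 in red and the 25 below 0 in blue. Fitted values past 8 are drawn at 8, which applies to called genes with no or few reads in a group. Klf2 and Emp3 lie far left of the dashed line of equal change, and Upk1b, Pde2a and Lag3 to its right.

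The transcription factor Klf2, which restrains inflammatory activation in myeloid cells, fell in the Cx and not in the Cb. In the Cx it had 18.2, 23.4, 22.6 and 21.3 CPM at P10 and 1.93, 1.45, 2.30 and 2.55 CPM at P42, a 10.4-fold lower mean. In the Cb it had 29.7, 30.2, 37.2 and 37.4 CPM at P10 and 40.9, 38.9, 36.0 and 64.2 CPM at P42. Every Cx library of P42 lay far below every other library of the 4 groups, and at P42 the mean was 21.9-fold higher in the Cb. The interaction was 3.79 (standard error 0.37, edgeR adjusted p = 1.1e-07). Klf2 (chromosome 8, 72319033 to 72321656) was called in all 26 alternative fits, in which the adjusted p ranged from 2.9e-22 to 0.00086.

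Emp3, a small membrane protein of the PMP22 family, also fell in the Cx and not in the Cb, at a higher level. Its P10 libraries held 62.5 to 69.4 CPM in the Cb and 64.1 to 74.8 CPM in the Cx, so the regions overlapped. At P42 it had 76.8, 86.1, 79.6 and 103 CPM in the Cb and 10.3, 17.3, 12.7 and 13.3 CPM in the Cx. The Cx libraries of P42 lay below every other library, 5.05-fold under the P10 mean of the Cx, with an interaction of 2.72 (standard error 0.21, edgeR adjusted p = 3.6e-09). Emp3 lies on chromosome 7 (45918023 to 45921404).

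Lsp1, a leukocyte protein that binds actin filaments, and Ifi30, a lysosomal thiol reductase used in antigen processing, were the other 2 genes above 0 that stayed called in all 26 alternatives, and they are described for that reason, seen in the data. Lsp1 had 152, 163, 142 and 162 CPM in the Cx at P10 and 49.7, 53.9, 58 and 56.1 CPM at P42, while all 8 Cb libraries lay between 160 and 194 CPM. Its interaction was 1.43 (standard error 0.14, edgeR adjusted p = 9.0e-08). Ifi30 fell from a mean of 213 to 97.9 CPM in the Cx and had means of 162 and 216 CPM in the Cb. Its Cx libraries were all above the Cb libraries at P10 and all below them at P42, with an interaction of 1.54 (edgeR adjusted p = 6.0e-07), and the change in the Cb was not past the limits by itself (log2 fold change 0.42). Exons of Ifi30 overlap those of RP23-410L16.8 on the other strand by 85 bases, and reads there are uncertain, since the handling of strand in the counting is not stated.

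Since Klf2, whose protein family binds the CACCC box, was among the genes with the largest interaction, promoters of the called genes were searched for this motif (CCACACCC, on either strand) in the 250 bases before each transcription start. Promoters of the RefSeq annotation on GRCm38.p6 were matched for 21 of the 29 genes above 0 and for 16 of the 25 below 0. The box was present for 5 of the 21 (Bbc3, Emp3, Gas5, Icosl and Igfbp4) and for 2 of the 16 (Aldoa and Npl), against 3.68% of 27025 genes with a promoter in the table. A gene with several starts was counted once if any of them held the motif. This is a description of letters, and binding was not measured. The promoters of Emp3, which fell in the Cx, of Icosl, which rose in the Cb, and of Igfbp4, which fell in both regions, are shown with the box in capitals, and that of Klf2, which holds none of the motifs searched, is shown beside them. Each runs 5′ to 3′ on the strand of the gene.

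Emp3, chr7:45920850-45921099, minus strand: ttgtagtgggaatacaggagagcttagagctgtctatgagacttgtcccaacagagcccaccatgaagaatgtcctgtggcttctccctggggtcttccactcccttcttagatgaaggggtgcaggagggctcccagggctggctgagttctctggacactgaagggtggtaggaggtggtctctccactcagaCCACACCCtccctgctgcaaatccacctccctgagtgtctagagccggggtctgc
Icosl, chr10:78069118-78069367, plus strand: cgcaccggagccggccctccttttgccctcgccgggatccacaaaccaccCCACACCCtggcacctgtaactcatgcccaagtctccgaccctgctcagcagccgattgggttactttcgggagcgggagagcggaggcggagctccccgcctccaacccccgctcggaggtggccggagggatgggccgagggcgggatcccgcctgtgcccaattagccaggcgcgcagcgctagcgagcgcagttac
Igfbp4, chr11:99040994-99041243, plus strand: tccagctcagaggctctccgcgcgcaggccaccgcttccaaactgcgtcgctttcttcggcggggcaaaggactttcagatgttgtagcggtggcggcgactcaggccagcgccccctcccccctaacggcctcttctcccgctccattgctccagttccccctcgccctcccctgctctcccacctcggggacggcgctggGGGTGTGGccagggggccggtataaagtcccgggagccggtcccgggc
Klf2, chr8:72318812-72319061, plus strand: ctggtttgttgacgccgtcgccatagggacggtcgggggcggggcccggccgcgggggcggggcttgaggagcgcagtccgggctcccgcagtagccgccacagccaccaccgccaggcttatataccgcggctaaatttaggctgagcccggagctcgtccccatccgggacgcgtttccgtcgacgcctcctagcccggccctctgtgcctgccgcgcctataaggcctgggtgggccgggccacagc

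The first base of the box lies 55 bases before the start in Emp3, 200 in Icosl and 48 in Igfbp4, where it is on the other strand and reads in reverse complement. Emp3 has 2 annotated starts, and the outer one, not shown, had no box. Of the other motifs searched on both strands, the AP-1 site TGANTCA was found for 1 gene above 0 and 3 below 0 (7.82% of all), and the cAMP response element TGACGTCA for 2 and 1 (1.77%). The E-box CACGTG was found for 2 and 3 (6.86%), the PU.1 core GAGGAAGT for 1 and 1 (2.79%), and the interferon-stimulated response element core, GAAA, any 2 bases and GAAA, for 2 (Cybb and Tgfbi) and 0 (3.46%). Overlap between motifs was allowed.

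Genes of lipid handling had interactions of both signs. Of 37 genes of a list for phagocytosis and lipid handling, 4 were called, against 0.258% of all genes tested, with 2 above and 2 below 0, and the list as a whole had a median interaction of 0.00 against 0.05 over all genes tested. With 1 library left out at a time, 2 (in 12 of 16 fits) or 3 of the list were called. Lpl, which releases fatty acids from lipoproteins, was lower at P42 in both regions, and by more in the Cx. Abca1 and Abcg1, the transporters that export cholesterol to lipoprotein particles, had interactions below 0.

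Lpl had 159, 191, 168 and 136 CPM in the Cx at P10 and 27.4, 27.5, 20.2 and 36.3 CPM at P42. In the Cb it had 393, 461, 487 and 297 CPM at P10 and 250, 232, 212 and 199 CPM at P42. In both regions all P42 libraries lay below all P10 libraries. The fall in the Cx passed both limits (log2 fold change -2.55), and that in the Cb passed the limit on p but not the one on size (-0.88, edgeR adjusted p = 0.00079). The gene was higher in every Cb library at both ages, and the difference between means widened from 2.51-fold to 8.01-fold. The interaction was 1.68 (standard error 0.25, edgeR adjusted p = 0.00034), and it was kept in 16 of 16 fits that left out 1 library.

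Abcg1 exchanged the order of the regions. At P10 it had 190, 214, 220 and 145 CPM in the Cb and 84.7, 79.0, 84.3 and 77.8 CPM in the Cx. At P42 it had 111, 113, 132 and 146 CPM in the Cb and 185, 201, 226 and 212 CPM in the Cx. The groups did not overlap at either age, with the Cb higher at P10 and the Cx higher at P42. The interaction was -1.95 (standard error 0.16, edgeR adjusted p = 8.0e-09), and the gene was called in all 26 alternatives. Abca1 had means of 355 CPM (SD 77.2, n = 4) and 188 CPM (SD 14.2, n = 4) in the Cb at P10 and P42, and 229 ± 52.4 (SD, n = 4) and 287 ± 29.3 (SD, n = 4) CPM in the Cx, with neither change past the limits alone. Its interaction was -1.24 (edgeR adjusted p = 0.0080) and was kept in 3 of 16 fits that left out 1 library, with an adjusted p of up to 0.025 without Cx P10 replicate 3.

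Outside this list, the desaturase Scd2 and the monoacylglycerol lipase Mgll also had values below 0. Scd2 fell in both regions, from a mean of 363 to 68.4 CPM in the Cb and from 351 to 141 CPM in the Cx (interaction -1.09, edgeR adjusted p = 0.0025). Mgll had 44.1 to 55.1 CPM in the adult Cb and 87.5 to 103 CPM in the adult Cx, after overlapping at P10 (interaction -1.19, edgeR adjusted p = 0.0010).

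The neighbouring chemokine genes Ccl6 and Ccl9, which lie 9245 bases apart on chromosome 11 and encode ligands of the CC family, had nearly equal interactions. Ccl6 had 354, 330, 338 and 307 CPM in the Cb at P10 and 103, 112, 118 and 103 CPM in the Cx. At P42 the Cb libraries held 283, 252, 217 and 271 CPM and the Cx libraries 227, 264, 201 and 257 CPM. A 3.06-fold difference between means at P10 was followed by overlapping libraries at P42, where the test between regions was not past the limits. The interaction was -1.5 (standard error 0.14, edgeR adjusted p = 9.0e-08). Ccl9 closed in the same way, from means of 298 CPM (SD 28.1) in the Cb and 131 CPM (SD 17.7) in the Cx at P10 to 238 CPM (SD 32.3) and 298 CPM (SD 33.8) at P42, with n = 4 in each group (interaction -1.51, edgeR adjusted p = 7.7e-06). Both genes rose in the Cx, and in the Cb neither change was past the limits. Their promoters, shown because the genes moved together, share none of the motifs searched, and the capitals in that of Ccl9 mark an AP-1 site.

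Ccl6, chr11:83593088-83593337, minus strand: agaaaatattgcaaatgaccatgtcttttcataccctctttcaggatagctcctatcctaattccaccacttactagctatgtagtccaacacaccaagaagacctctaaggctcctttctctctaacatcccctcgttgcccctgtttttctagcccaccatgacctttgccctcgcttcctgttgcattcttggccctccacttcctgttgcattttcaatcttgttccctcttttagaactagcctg
Ccl9, chr11:83578637-83578886, minus strand: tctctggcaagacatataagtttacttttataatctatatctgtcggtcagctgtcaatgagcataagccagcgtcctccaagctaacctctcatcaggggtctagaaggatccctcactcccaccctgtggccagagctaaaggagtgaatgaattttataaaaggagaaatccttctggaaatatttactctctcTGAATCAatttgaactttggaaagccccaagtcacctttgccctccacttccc

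Of 32 tested genes of a list of cytokines and chemokines, these were the 2 called in the interaction, against 0.258% of all genes tested. Ccl4, a chemokine that rises quickly when microglia are handled, rose in both regions, from a mean of 37.5 to 115 CPM in the Cb and from 6.33 to 76.9 CPM in the Cx, and its interaction of -1.99 was not past the limit (edgeR adjusted p = 0.080).

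Upk1b, a tetraspanin best known from the bladder lining, rose in the Cx. In the Cx it had 39.9, 18.5, 19.0 and 30.6 CPM at P10 and 264, 269, 193 and 235 CPM at P42, an 8.89-fold higher mean. In the Cb it had 49.2, 49.0, 34.0 and 60.4 CPM at P10 and 40.1, 21.7, 33.5 and 50.4 CPM at P42. The adult Cx stood apart from the 12 other libraries, which overlapped one another. The interaction was -3.56 (standard error 0.46, edgeR adjusted p = 3.1e-05). Upk1b lies on chromosome 16 (38773184 to 38800203).

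Other genes rose in the Cx, and of these Tspan13 also rose in the Cb. Slc1a3, a glutamate transporter, went from 80.6 to 87.1 CPM at P10 to 217 to 282 CPM at P42 in the Cx, and from 86.3 to 120 CPM to 134 to 140 CPM in the Cb (interaction -1.17, edgeR adjusted p = 0.00093). Slc1a3 is also a marker of astrocytes. The 9 astrocyte markers summed to 219 to 283 CPM in the adult Cx and 142 to 157 CPM in the adult Cb, of which Slc1a3 made up most, while Aqp4 and Gdf10 were at 0 in all 4 adult Cx libraries and Gfap was at most 1.03 CPM there.

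Aldoa, an enzyme of glycolysis, rose from a mean of 185 to 407 CPM in the Cx and was at 279 and 293 CPM in the Cb (interaction -1.07, edgeR adjusted p = 0.00010). Tspan13, another tetraspanin, rose in both regions, more so in the Cx (from 74.1 to 405 CPM) than in the Cb (from 105 to 270 CPM), with an interaction of -1.09 (edgeR adjusted p = 2.0e-05). The actin-bundling protein Fscn1 rose from 165 to 490 CPM in the Cx by means and was at 260 and 332 CPM in the Cb (interaction -1.22, edgeR adjusted p = 0.0053), with the call kept in 8 of 16 fits that left out 1 library.

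Fam26f, Nbl1 and Pde2a were low genes of the same kind. The phosphodiesterase Pde2a had 0.836, 1.68, 1.79 and 3.70 CPM in the Cx at P10 and 29.7, 34.1, 16.6 and 13.0 CPM at P42. In the Cb it lay between 3.50 and 18.7 CPM in the 8 libraries. Its interaction was -3.93 (edgeR adjusted p = 0.0080), and the call was kept in 6 of 16 fits that left out 1 library. Exons of Pde2a overlap those of Arap1 on the same strand, where reads were discarded by the authors as ambiguous. Nbl1, which binds bone morphogenetic proteins, rose in the Cx, from a mean of 2.20 CPM (SD 1.15, n = 4) to one of 10.7 CPM (SD 2.62, n = 4) at P42, and had 6.69 and 4.06 CPM in the Cb (interaction -3.0, edgeR adjusted p = 0.0053, kept in 8 of 16 fits). Fam26f, a pore-forming membrane protein of the CALHM family, rose in the Cx, from a mean of 5.17 CPM (SD 0.517, n = 4) to one of 17.0 CPM (SD 2.82, n = 4) at P42, and had 13.3 and 14.2 CPM in the Cb (interaction -1.62, edgeR adjusted p = 0.0063, kept in 3 of 16 fits).

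Of the 25 genes with a value below 0, 8 fell in the Cb, and of these 8 Scd2, described above, also fell in the Cx past both limits. Lag3, an inhibitory receptor that binds MHC class II, had 62.4, 85.3, 58.2 and 79.7 CPM in the Cb at P10 and 20.1, 16.7, 29.3 and 18.4 CPM at P42. In the Cx it had 39.0, 24.4, 28.2 and 25.7 CPM at P10 and 57.3, 52.9, 60.4 and 52.8 CPM at P42. The groups did not overlap at either age, and the order of the regions was exchanged. Lag3 was the only one of the 54 genes called in both directions between regions, higher in the Cb at P10 (log2 fold change 1.29, edgeR adjusted p = 6.6e-05) and higher in the Cx at P42 (-1.40, edgeR adjusted p = 5.3e-06). Its interaction was -2.69 (standard error 0.25, edgeR adjusted p = 6.0e-08), and it was called in all 26 alternatives.

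Crybb1, a crystallin also expressed in microglia, had 562 to 621 CPM in the Cb and 646 to 716 CPM in the Cx at P10. At P42 it had 133, 120, 142 and 155 CPM in the Cb and 503, 502, 399 and 372 CPM in the Cx. It was lower in the adult Cb than in every other library, 4.36-fold below its own P10 mean, and the interaction was -1.52 (standard error 0.14, edgeR adjusted p = 6.0e-08). Crybb1 (chromosome 5, 112255815 to 112269585) was called in all 26 alternatives.

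Pecam1, an adhesion molecule of leukocytes and endothelium, had a mean of 63.1 ± 9.41 CPM (SD, n = 4) in the Cb at P10 and 14.3, 7.29, 4.86 and 9.99 CPM at P42. The Cx libraries held 37.5 to 50.2 CPM at P10 and 57.3, 69.2, 25.9 and 40.5 CPM at P42. The adult Cb was lowest in every comparison of libraries, with an interaction of -2.91 (standard error 0.44, edgeR adjusted p = 0.00031). Of the 9 tested markers of endothelial cells and pericytes, Pecam1 alone was called, against 0.258% of all genes tested. Their sum was 7.80 to 22.9 CPM in the adult Cb and 49.6 to 88.4 CPM in the adult Cx. Most of the rest of that sum was Kdr, a receptor for vascular endothelial growth factor, with 2.95 to 12.5 CPM in the adult Cb and 5.51 to 22.4 CPM in the adult Cx (interaction -0.60, edgeR adjusted p = 1.0). Cdh5, the cadherin of endothelial junctions, fell in the Cb from a mean of 1.97 to 0.178 CPM and had 1.96 and 0.824 CPM in the Cx. Flt1, Pdgfrb and Rgs5 had means under 1 CPM in each of the 4 groups, as did Kcnj8 and Tek, and Cldn5 was at 0 in all 8 adult libraries. The part of endothelial cells in the result for Pecam1 was not tested. Milr1, an inhibitory receptor of myeloid cells, begins 597 bases from Pecam1 on the other strand of chromosome 11 and had an interaction of the opposite sign (1.44, edgeR adjusted p = 0.0073), with 48.9 to 55.9 CPM in the adult Cb and 14.4 to 25.5 CPM in the adult Cx.

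Gm13889, a predicted gene, fell from 13.0 ± 0.991 (SD, n = 4) to 2.68 ± 0.342 (SD, n = 4) CPM in the Cb and had 9.32 ± 0.815 (SD, n = 4) and 8.40 ± 0.759 (SD, n = 4) CPM in the Cx (interaction -2.12, edgeR adjusted p = 0.00097). Ncaph, a condensin subunit that compacts chromosomes, fell from 75.6 ± 12.7 (SD, n = 4) to 13.8 ± 3.70 (SD, n = 4) CPM in the Cb and had 80.0 ± 12.6 (SD, n = 4) and 48.7 ± 12.3 (SD, n = 4) CPM in the Cx, where the change was not past the limits (interaction -1.74, edgeR adjusted p = 0.0080, kept in 3 of 16 fits). The interaction of Ncaph was of the opposite sign to those of Mki67, Dlgap5 and Casc5, given below.

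Npl, which cleaves sialic acid, fell in the Cb from a mean of 198 to 73.6 CPM and had 186 and 141 CPM in the Cx (interaction -1.02, edgeR adjusted p = 0.0013). Cd5l, a secreted protein of macrophages, had 2.09 to 8.29 CPM in the Cb at P10, and no read in any of the 4 Cb libraries at P42. Against a limit of 3 counts per library it was at least 45.3-fold lower than at P10 (at least 27.8-fold without Cb P10 replicate 3) and at least 27.6-fold lower than in the adult Cx (1.72 to 3.22 CPM). In the CC, Cd5l had 0 to 4.57 CPM at P10 and likewise no read in any library at P42.

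Of the genes with an interaction above 0, 9 rose in the Cb. Fxyd5, a regulator of the sodium pump, had 12.0, 14.2, 16.1 and 11.3 CPM in the Cb at P10 and 34.3, 40.2, 34.3 and 35.7 CPM at P42. The Cx held 12.7, 11.0, 10.4 and 11.2 CPM at P10 and 7.40, 5.07, 2.83 and 5.81 CPM at P42. The regions overlapped at P10 and lay apart at P42, where the mean was 6.85-fold higher in the Cb. Fxyd5 was the 1 gene that rose in the Cb and fell in the Cx, both past the limits, with an interaction of 2.53 (standard error 0.38, edgeR adjusted p = 0.00031).

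Cybb, the catalytic subunit of the phagocyte NADPH oxidase, rose from 1.59, 3.52, 1.54 and 1.24 CPM to 13.1, 24.7, 24.7 and 13.9 CPM in the Cb. In the Cx it had 2.59 to 6.19 CPM at P10 and 0.0528 to 5.71 CPM at P42. Its interaction was 4.32 (standard error 0.89, edgeR adjusted p = 0.0093), kept in 3 of 16 fits that left out 1 library, with an adjusted p of up to 0.029 without Cx P42 replicate 1. In the CC its means were 2.79 CPM at P10 and 18.2 CPM at P42.

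Tlr2, a receptor for bacterial lipopeptides, had 328 to 362 CPM in the Cb at P10 and 519 to 568 CPM at P42, against 363 to 390 and 242 to 344 CPM in the Cx (interaction 1.07, edgeR adjusted p = 0.0021, kept in 15 of 16 fits), with neither change past the limits alone. Tgfbi, a matrix protein induced by TGF-beta, rose in the Cb, from a mean of 39.5 CPM (SD 4.90, n = 4) to one of 99.6 CPM (SD 18.1, n = 4) at P42, and had 63.8 ± 8.18 (SD, n = 4) and 71.2 ± 6.54 (SD, n = 4) CPM in the Cx (interaction 1.18, edgeR adjusted p = 0.0053, kept in 6 of 16 fits). Il17ra, a subunit of the interleukin-17 receptor, rose from a mean of 129 to 349 CPM in the Cb and had 173 and 227 CPM in the Cx (interaction 1.04, edgeR adjusted p = 0.0011). Icosl, a ligand of the T cell costimulator ICOS, rose from 55.8 to 131 CPM in the Cb and had 71.8 and 73.0 CPM in the Cx (interaction 1.21, edgeR adjusted p = 0.0086, kept in 1 of 16 fits).

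Alox5, which makes leukotrienes, differed in that its regions met at P42. It rose in the Cb from 11.6 to 21.9 CPM at P10 to 87.2 to 100 CPM at P42, and the Cx held 41.5 to 53.7 and then 60.9 to 98.4 CPM (interaction 1.41, edgeR adjusted p = 0.0073, kept in 1 of 16 fits). Igfbp4, which binds insulin-like growth factors, also met at P42, and like Alox5 it was lower in the Cb at P10. It fell from a mean of 264 to 58.3 CPM in the Cb and from 538 to 56.5 CPM in the Cx (interaction 1.07, edgeR adjusted p = 0.0053, kept in 4 of 16 fits).

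The cell death gene Bbc3 rose in the Cb, from a mean of 7.58 CPM (SD 0.659, n = 4) to one of 17.7 CPM (SD 2.20, n = 4) at P42, and had 7.92 ± 0.767 (SD, n = 4) and 5.19 ± 1.90 (SD, n = 4) CPM in the Cx (interaction 1.83, edgeR adjusted p = 0.0099, kept in 2 of 16 fits). Gm44545, a predicted gene inside an intron of P2ry6 on the other strand, rose in the Cb, from a mean of 7.08 CPM (SD 1.12, n = 4) to one of 24.8 CPM (SD 3.80, n = 4) at P42, and had 11.8 ± 1.70 (SD, n = 4) and 8.61 ± 1.95 (SD, n = 4) CPM in the Cx (interaction 2.26, edgeR adjusted p = 0.00093), and its reads cannot be told apart from those of unspliced P2ry6 transcripts if strand was ignored. Mir142hg, the host transcript of a blood cell microRNA, rose from a mean of 9.33 to 27.5 CPM in the Cb and had 12.0 and 13.0 CPM in the Cx (interaction 1.44, edgeR adjusted p = 0.0053, kept in 6 of 16 fits).

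Most cell division genes fell in both regions. Of 32 cell division genes, 31 fell in the Cb and 31 in the Cx, where 2.14% and 2.77% of all genes tested fell, and their summed level dropped from 1754 to 1905 CPM at P10 to 162 to 182 CPM at P42 in the Cb and from 2320 to 2717 CPM to 174 to 217 CPM in the Cx. Of these 32, Mki67, a marker of cycling cells, was the 1 called in the interaction, against 0.258% of all genes. In the Cb it had 47.5 to 60.5 CPM at P10 and 0.207, 0.267, 2.30 and 0.253 CPM at P42, and in the Cx 81.8 to 123 CPM and then at most 0.0528 CPM. The adult Cb mean rests on replicate 3, and without it the interaction was no longer past the limit (edgeR adjusted p = 0.089). In that fit, 1 other member of the list was called, with a value below 0. The call of Mki67 was kept in 3 of the 16 fits that left out 1 library.

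Dlgap5, a spindle protein, and Casc5, a kinetochore scaffold, had few reads in the adult Cb and almost none in the adult Cx. Dlgap5 had 0.448, 0.00, 2.51 and 0.460 CPM in the adult Cb and 1 read in the 4 adult Cx libraries together, after 10.9 to 26.4 CPM at P10 in both regions. Casc5 had 0.0345, 0.652, 1.64 and 0.00 CPM in the adult Cb and 3 reads in the adult Cx, and without Cb P42 replicate 3 its adjusted p was 0.038 with edgeR. The DNA repair helicase Dna2 was kept in the adult Cb, with 2.58, 6.76, 10.9 and 9.57 CPM against 0.00, 0.396, 0.00 and 0.226 CPM in the adult Cx (edgeR adjusted p = 0.0080, kept in 2 of 16 fits). Cdkn1a, an inhibitor of the cell cycle, fell from 94.9 to 113 CPM at P10 to 7.03 to 17.7 CPM at P42 in the Cx, and had 49.5 to 60.4 and then 21.4 to 41.6 CPM in the Cb (interaction 2.23, edgeR adjusted p = 0.0054, kept in 2 of 16 fits).

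The other called genes followed the same routes. Above 0 were Csf2ra, the receptor subunit for GM-CSF (51.4 to 72.6 CPM by means in the Cb, 51.3 to 27.5 CPM in the Cx), Gpr84, a receptor for medium-chain fatty acids (323 to 385 and 420 to 226 CPM), Lpar6, a lysophosphatidic acid receptor (181 to 250 and 256 to 171 CPM), Traf3ip3 (130 to 92.6 and 158 to 54.1 CPM) and the non-coding RNA Gas5 (51.4 to 34.8 and 66.1 to 17.0 CPM). Ptpn7, a phosphatase of blood cells, had 0.830 to 4.65 CPM in the adult Cb and 1 read in the 4 adult Cx libraries together. Below 0 were Ldhb, a lactate dehydrogenase subunit (594 to 300 and 540 to 553 CPM), S1pr1, a sphingosine 1-phosphate receptor (191 to 116 and 112 to 148 CPM), Fcrl1 (59.2 to 46.4 and 60.2 to 107 CPM) and Rapsn (22.6 to 14.9 and 19.9 to 31.2 CPM). Exons of Milr1, Traf3ip3 and Lpar6 overlap those of Polg2, A130010J15Rik and Rb1 on the other strand. Fcrl1 lies 5313 bases from Cd5l on chromosome 3, and both had a value below 0.

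Besides Abca1, Cybb, Mki67 and Casc5, a further 18 named genes had an edgeR adjusted p over 0.01 in at least 1 of the 16 fits that left out a library, and the highest value of each is given with the library that was left out. Without Cb P10 replicate 1 it was 0.017 for Igfbp4, 0.021 for Tgfbi, 0.026 for Dna2 and 0.032 for Icosl. Without Cb P10 replicate 2 it was 0.019 for Cdkn1a, 0.030 for Bbc3 and 0.030 for Pde2a. Without Cb P10 replicate 4 it was 0.028 for Rapsn. Without Cb P42 replicate 2 it was 0.015 for Fscn1 and 0.021 for Mir142hg. Without Cx P10 replicate 1 it was 0.019 for Lpar6. Without Cx P10 replicate 3 it was 0.018 for Nbl1 and 0.019 for Fam26f. Without Cx P10 replicate 4 it was 0.013 for S1pr1 and 0.021 for Alox5. Without Cx P42 replicate 1 it was 0.018 for Ptpn7. Without Cx P42 replicate 2 it was 0.023 for Milr1 and 0.024 for Ncaph. A further 5 genes kept an adjusted p under 0.01 in those fits and fell under the size limit of 1 in some of them. These were Il17ra without Cb P10 replicate 1 or 3, Cx P10 replicate 1 or Cx P42 replicate 4 (0.97 at the lowest), Npl without Cb P10 replicate 3, Cb P42 replicate 1 or Cx P42 replicate 2 (-0.96), Traf3ip3 without Cb P10 replicate 1, Cb P42 replicate 2 or Cx P42 replicate 4 (0.97), Ldhb without Cx P42 replicate 1 or 2 (-0.95), and Tlr2 without Cx P42 replicate 4 (0.99). Klf2, Emp3, Lsp1, Ifi30, Crybb1, Lag3, Ccl6 and Abcg1 were kept in all 26 alternatives.

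**Figure D2:**
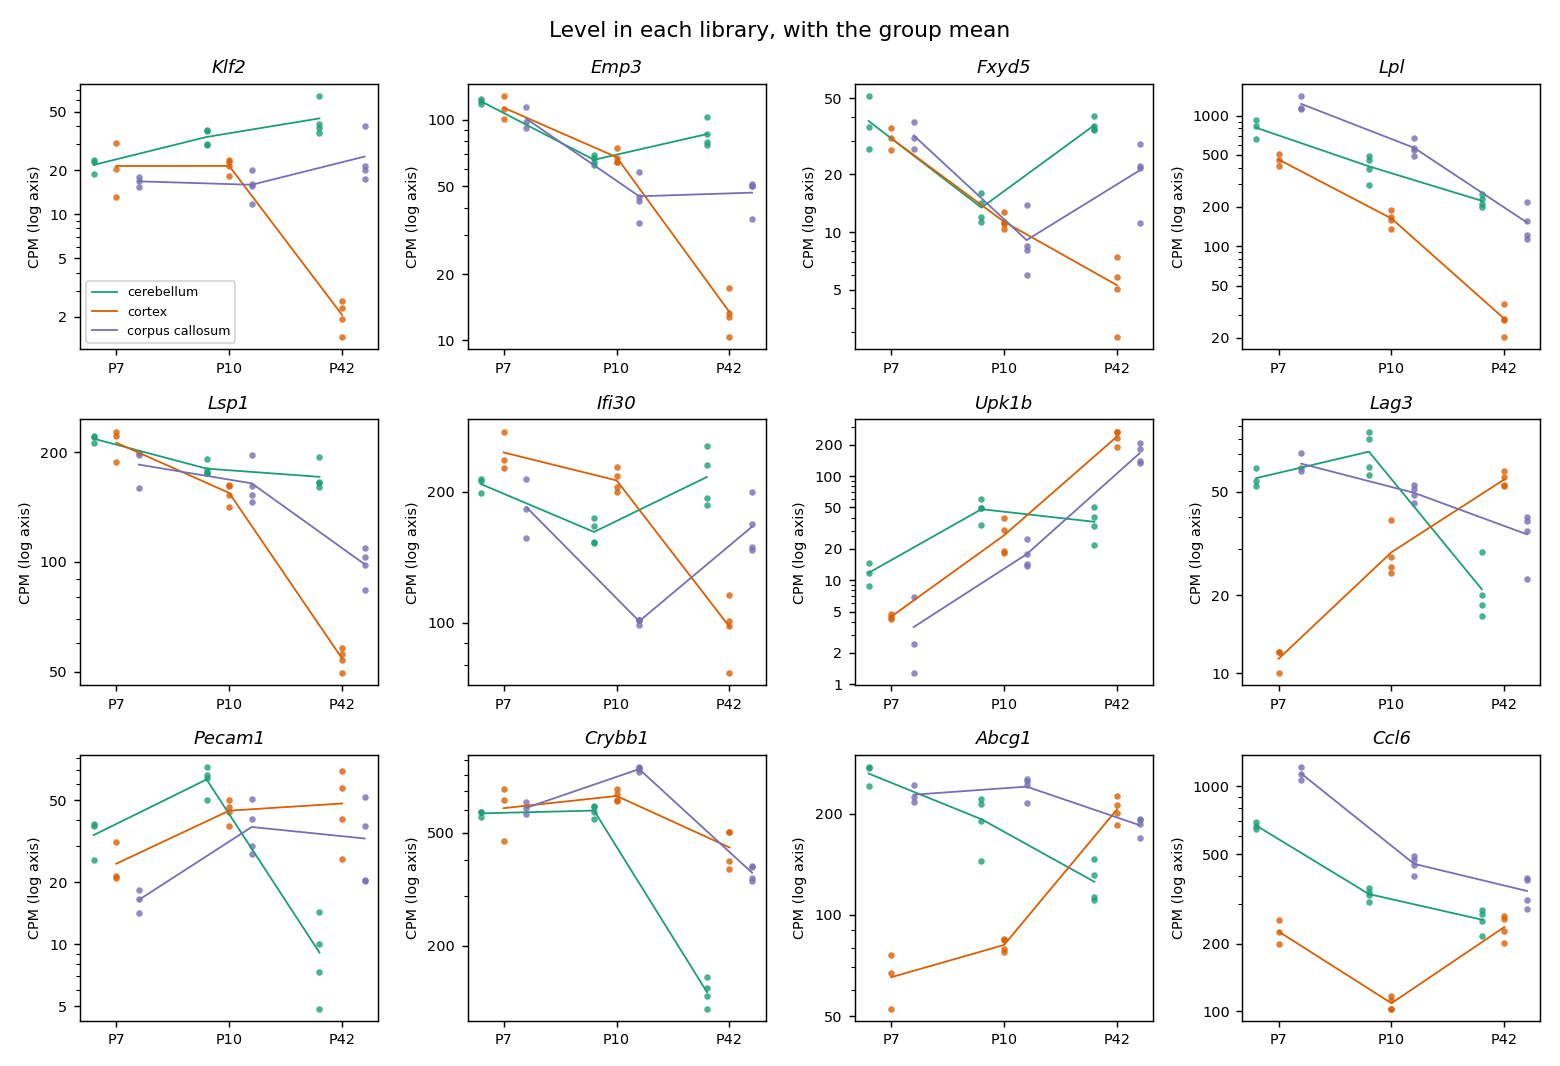
Level in CPM on a log axis in each library at P7 (n = 3 per region), P10 and P42 (n = 4 per region), with lines through the group means of the Cb, Cx and CC, for 12 called genes. In Klf2, Emp3, Fxyd5, Lpl, Lsp1 and Ifi30 the Cx falls away at P42, and in Upk1b and Abcg1 it rises past the Cb. In Lag3 and Pecam1 the Cb falls below the Cx, and in Crybb1 the Cb, already lower at P10, falls further below it.

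For most of these genes the difference between regions was larger at P42 than at P10. Between the Cb and Cx, 31 of all genes (0.148%) passed at P10, 27 (0.129%) higher in the Cb and 4 (0.0191%) higher in the Cx, and 120 (0.574%) passed at P42, 84 (0.402%) higher in the Cb and 36 (0.172%) higher in the Cx. Of the 54 genes, the fitted difference between regions was wider at P42 in 41 and narrower in 13, and it changed sign in 43. Of the genes above 0, 20 were higher in the Cb at P42, of which Lpl was already so at P10. Of those below 0, 10 were higher in the Cx at P42, and 5 had been higher in the Cb at P10 (Ccl6, Ccl9, Abcg1, Fam26f and Lag3). The Cb and Cx libraries did not overlap at P42 for 46 of the 54 and at P10 for 32, where 9.24% and 8.07% of all genes tested did not overlap. Since a call in the interaction needs such differences, these counts describe the genes and are no further test.

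**Figure D3:**
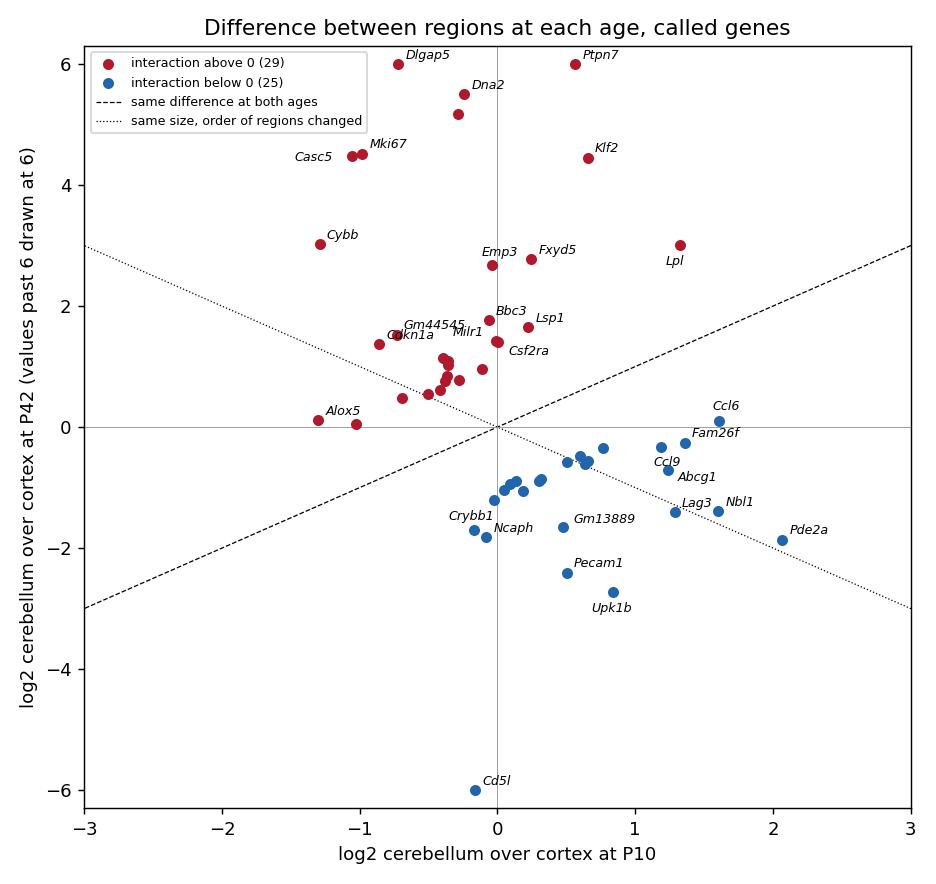
Log2 difference of the Cb over the Cx at P10 (horizontal axis) and P42 (vertical axis) for the 54 called genes, with the interaction above 0 in red and below 0 in blue. Points steeper than the dotted line have a wider difference at P42, as for Klf2, Emp3, Lsp1, Upk1b and Pecam1, whereas Ccl6, Alox5 and Igfbp4 lie near a difference of 0 at P42.

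The CC was the other region of the series. At P42 its mean lay between those of the Cb and Cx for 44 of the 54 genes, 24 above 0 and 20 below. By log2 of CPM plus 0.1, this mean was nearer to the Cx than to the Cb for 29 of 54 at P42. At P10 it was nearer to the Cx for 9 of the 54. The genes were called for a difference between the Cb and Cx, and the share over all genes was not counted. These counts therefore describe the called genes and are no test of the CC. For Emp3 the means at P42 were 86.3 CPM in the Cb, 46.8 CPM in the CC and 13.4 CPM in the Cx, and for Klf2 45.0, 24.7 and 2.06 CPM. For Upk1b they were 36.4, 166 and 240 CPM, and for Lag3 21.1, 34.3 and 55.8 CPM. When the change in the Cb was set against that in the CC instead, 5 of the 54 genes were called, 2 above and 3 below 0. Over all 20917 genes tested, 26 were called. Klf2 had a difference of -0.22 (edgeR adjusted p = 0.92), Emp3 of 0.33 (0.51) and Abcg1 of -0.24 (0.56), whereas Upk1b had -3.62 (0.00032) and Pecam1 -2.61 (0.0025). Both comparisons use the same Cb libraries.

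The interaction had the same sign in both sexes for all 54 genes, with 2 samples of each sex in each group. For Klf2 it was 4.03 in females and 3.60 in males, for Emp3 2.62 and 2.82, for Upk1b -3.86 and -3.28, and for Lag3 -2.81 and -2.61. Genes were called on the samples of both sexes together, which favours equal signs. The difference of the interaction between the sexes was tested across all genes with edgeR and passed for 0. An unadjusted p under 0.05 was found for 642 genes, or 3.07%, where 5% would have one by chance.

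Among gene lists, the homeostatic program of microglia had 0 of 18 members called in the interaction, which for a list of this length cannot be told apart from the 0.258% of all genes tested. The median was -0.07, against 0.05 over all genes tested. Fcrls, an Fc receptor-like gene, fell from a mean of 7399 to 3476 CPM in the Cb and had 8361 and 7162 CPM in the Cx, with an interaction past the p-value limit and under the size limit (-0.87, edgeR adjusted p = 1.2e-05). A list of genes linked to the priming of microglia, drawn in part from the study of these samples and so no independent evidence, had 2 of 22 called, Tlr2 and Tgfbi, against 0.258% of all genes tested. With 1 library left out at a time, 2 were called in 6 of 16 fits, 1 in 9 and 0 in the fit without Cx P42 replicate 4. The median was 0.79, or 0.49 once members at the detection limit were held at their bound, and it lay between 0.48 and 1.09 in those 16 fits without such a bound.

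Part of the interferon response rose in the Cx. Of 35 members, 12 rose in the Cx and 0 in the Cb, where 1.09% and 1.15% of all genes tested rose. An interaction above 0 was found for 5 of the 35 and for 11080 of the 20917 genes tested, and the median was -0.92 against 0.05. In the interaction 0 were called, against 0.258% of all genes tested. Xaf1, which promotes cell death, rose from a mean of 6.69 to 27.8 CPM in the Cx and had means of 11.7 and 18.0 CPM in the Cb (interaction -1.43, edgeR adjusted p = 0.054). Ifit3, an antiviral protein, rose from a mean of 2.90 to 38.3 CPM in the Cx, but its 4 adult libraries ranged from 16.7 to 81.5 CPM (interaction -2.12, edgeR adjusted p = 0.29). At P10 the summed list lay between 590 and 636 CPM in the Cx and between 709 and 818 CPM in the Cb. At P42 it lay between 882 and 1625 CPM in the Cx and between 889 and 1186 CPM in the Cb, which overlapped. In both regions the sum was thus higher in every P42 library than in every P10 library. With 1 library left out at a time, 9 (without Cx P42 replicate 1) to 13 members rose in the Cx and 0 or 1 in the Cb, and the median lay between -1.04 and -0.65 (without Cx P42 replicate 4).

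**Figure D4:**
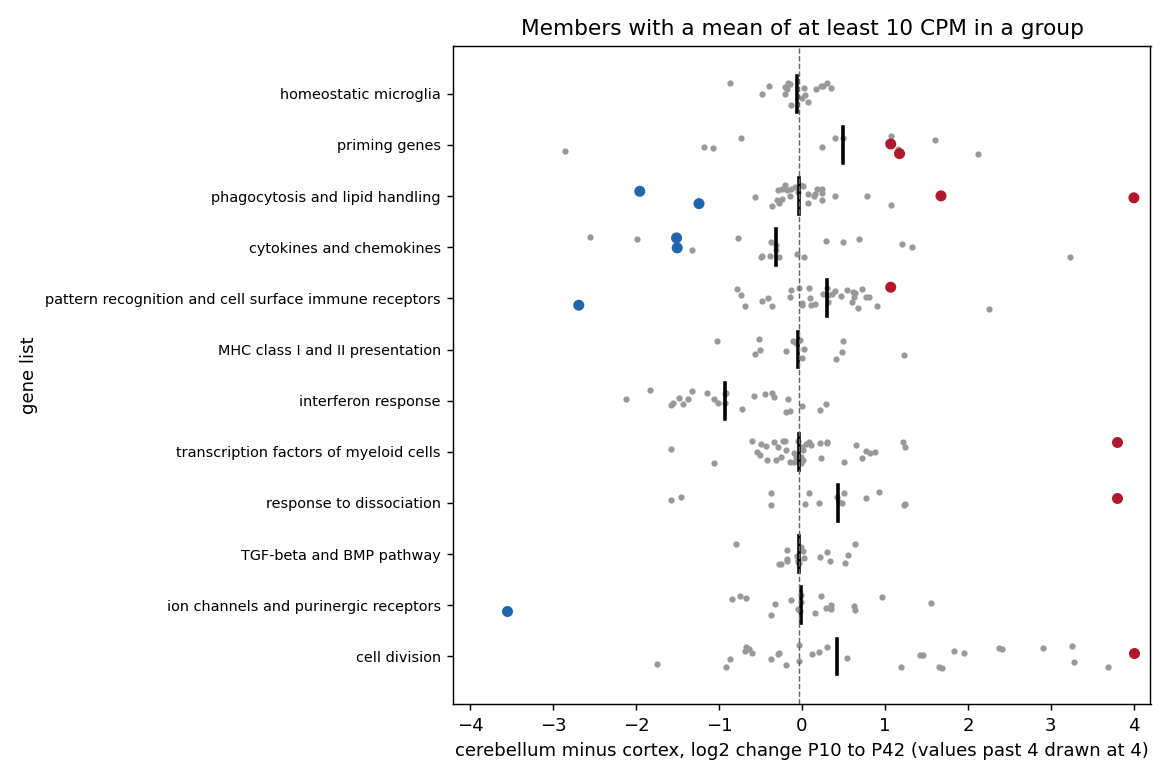
Interaction (Cb minus Cx, log2 change from P10 to P42) of each list member with a mean of at least 10 CPM in a group, with called genes in red or blue, the list's median as a black bar and the median of all genes at that level as a dashed line. Most members of the interferon response lie left of 0. Some called genes lie far from the median of their list, such as Klf2 in the transcription factors.

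Some genes of the response to dissociation, early genes switched on while tissue is taken apart, rose with age in each region. Of 22 members, 7 rose in the Cb and 3 in the Cx (1.15% and 1.09% of all genes), Klf2 alone was called in the interaction (0.258% of all genes), and the median was 0.46. Their sum was 2282 to 2569 CPM in the adult Cb and 1572 to 1913 CPM in the adult Cx, after 1281 to 1331 and 1078 to 1130 CPM at P10. Klf6 had an interaction of 0.77 (edgeR adjusted p = 0.0053), while Atf3 had one of -1.45 (edgeR adjusted p = 0.044). The part of this response in the interaction of Klf2 was not tested, and Klf4, a close relative of Klf2 in this list, was at most 1.46 CPM by group mean.

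Other lists held 0 to 2 called genes, against 0.258% of all genes tested, and counts of 0 in lists of this length cannot be told apart from that share. Of 20 genes of MHC class I and II presentation and of 31 of the TGF-beta and BMP pathway, 0 were called, with medians of -0.04 and 0.02. Of 57 transcription factors of myeloid cells, Klf2 was the 1 called, and the median was -0.05. Without Cx P42 replicate 3, 2 of them were called, and the median lay between -0.10 and -0.02 in the 16 fits that left out a library. Of 47 pattern recognition and immune receptors, Tlr2 and Lag3 were called (1 of them without Cx P42 replicate 4) and the median was 0.30. Of 34 ion channels, purinergic receptors and other surface proteins, Upk1b was called and the median was 0.26. With 1 library left out at a time, 2 of this list were called in 2 of 16 fits, and its median lay between 0.14 and 0.33.

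Markers of other cells that a sort could carry over were measured in the same libraries, and some of their sums differed with region and age. Red cell genes summed to 101 to 129 CPM in the Cb at P10, at most 12.2 CPM in the Cx at P10 and under 1 CPM at P42. Border macrophage markers summed to 277 to 340 CPM in the Cb and 675 to 732 CPM in the Cx at P10, and to 155 to 171 and 184 to 208 CPM at P42. Of these, Mrc1, the mannose receptor, fell from a mean of 120 to 25.3 CPM in the Cb and from 474 to 22.9 CPM in the Cx (interaction 2.12, edgeR adjusted p = 0.16). The 4 tested lymphocyte markers summed to 132 to 150 CPM in the Cb and 132 to 137 CPM in the Cx at P10, and to 79.9 to 88.4 and 53.5 to 93.8 CPM at P42, nearly all of it from Cd79b (141.6 and 84.5 CPM by means in the Cb, 134.6 and 74.6 CPM in the Cx). The other 3 (Trac, Cd79a and Klrb1c) were under 1 CPM in every group mean. Oligodendrocyte markers summed to between 145 and 260 CPM in the 4 groups, neuronal markers to at most 14.4 CPM and those of cerebellar neurons to at most 10.9 CPM. Neutrophil markers summed to at most 4.28 CPM and monocyte markers to at most 23.5 CPM. Of these lists and those of red cells, border macrophages, lymphocytes, oligodendrocytes and both sets of neurons, 0 genes were called in the interaction. In lists of this length, 0 cannot be told apart from the 0.258% of all genes tested. Median interactions were 2.57 for border macrophages, 0.86 for neurons and -0.27 for cerebellar neurons, against 0.05 over all genes tested. They were -6.90 for red cells, -6.09 for neutrophils, -1.59 for monocytes, and -1.29 for lymphocytes and for oligodendrocytes. Many of these members were at the detection limit in a group. Without Cx P10 replicate 1, 1 red cell gene was called, with a value below 0. Of 6 red cell genes, 5 fell in the Cb and 0 in the Cx, against 2.14% and 2.77% of all genes tested. In the Cb, 1 fell when Cb P42 replicate 1, replicate 2 or replicate 3 was left out, and 3 without replicate 4. The part of these other cell types in the called genes was not tested.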

How the data were processed

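The series holds 33 RNA-seq libraries of sorted microglia from the CC, Cx and Cb. Reads were mapped by the authors to GRCm38 with STAR 2.5.2b and counted per gene with featureCounts 1.6.2. Multimapping reads and reads on more than 1 gene were discarded. The deposited values are raw counts, used here as they stand. All columns were assigned to samples by name (0 left unassigned). Of 48587 genes, 17212 had no reads and were removed, as were the 10458 genes with the lowest summed counts, following the study. The 92 spike-in sequences were left out.

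Tests used edgeR 4.0.16 in R 4.3.3 on the count table, with TMM factors, robust dispersions, the quasi-likelihood fit and 1 coefficient for each of the 9 groups, and p-values were adjusted over 20917 genes by Benjamini-Hochberg. The study names limma-voom, which was an alternative (limma 3.58.1), as was DESeq2 1.42.0. Standard errors are the absolute log2 value over the square root of F, and are approximate. The fit was tested on simulated data before use. In every library, 3 counts were taken as the detection limit of a gene.

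The alternatives were RLE factors, filterByExpr (16738 genes) or no filter, only the 16 libraries, sex as a covariate, a replicate block, each sex alone, an adjusted p of 0.05, and each library left out in turn. The counts of the gene lists and the bound for Cd5l with each library left out were added after seeing the data. Replicates of a group differed by more than sampling noise (smallest chi-square per degree of freedom 29.0).

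Genes were named by rule: up to 12 in each direction with the largest interaction among called genes, a mean of at least 10 CPM in a group and 1 sign in all fits that left out a library, and every called gene of a list. The other called genes are named to account for them, and some items are not reported here. The members, lists and rule were chosen with earlier results of these data known.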

Additional observations from a re-analysis of the deposited data

Results flagged for a closer look

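All 54 called genes differ between the regions in their change from P10 to P42 by the test of that difference itself. In groups of 4 libraries, the highest or lowest library of a named gene was set against the rest with Dixon's test, which singled out 4 of 112 groups, where chance gives about 1 in 20. Mki67 was at 2.30 CPM in Cb P42 replicate 3, with the next library at 0.267 CPM. Dlgap5 had 0.0351 CPM in Cx P42 replicate 1, which is 1 read, and 0 in the other 3 libraries. Cybb was highest in Cb P10 replicate 2 (3.52 CPM, next 1.59 CPM), as was Pde2a (18.7 CPM, next 5.43 CPM). Spike-in reads, which no comparison used, numbered 170 in Cb P42 replicate 3 and at most 23 in any other library of the series.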

How the results depend on the processing

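Of the 54 called genes, 0 changed direction in any alternative. The count of 54 (29 above and 25 below 0) stayed within 1.5 times with limma-voom (63 genes, 44 of them shared), RLE factors (55, 54 shared) and filterByExpr (58, 54 shared). It also did with no filter (49, 46 shared), the 16 libraries alone (72, 46 shared) and sex as a covariate (52, 50 shared). The genes lost in the 16 libraries alone were Casc5 (adjusted p with edgeR 0.048), Cybb (0.036), Fscn1 (0.032), Dlgap5 (0.017), Ptpn7 (0.017), Rapsn (0.012), Mki67 (0.011) and Bbc3 (0.0102). DESeq2 called 165 genes (110 above and 55 below 0), females alone 18 (4 and 14), males alone 9 (4 and 5), and an adjusted p of 0.05 without a size limit 180. Leaving out 1 library gave 32 to 50 genes in all, 12 (without Cb P10 replicate 1) to 29 above 0, and 16 (without Cx P42 replicate 2) to 23 below 0. The same gave 19 (without Cx P10 replicate 3) to 33 genes between regions at P10, and 15 (without Cb P10 replicate 4) to 28 in the comparison of Cb with CC changes, which called 26. The change in the Cb had 1045 genes with limma-voom and 1046 with DESeq2, the regions at P10 60 and 95, the regions at P42 295 with DESeq2, and the Cb against the CC 42 and 269. The causes were not tested. With a replicate block, 53 genes were called (38 shared). Deviations of same-numbered Cb and Cx samples from their group means correlated at -0.03 to 0.04 over 9764 genes. With 4 libraries per group, this cannot show whether the numbers pair samples, and the labels do not say. The changes with age could not be estimated with the block. Scaling to spike-ins was not run, since libraries held 4 to 170 such reads. In groups with 0 to 3 reads per library, depth limits the size of a change that can be stated.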
